A study of Mus musculus with 11 samples.

Results

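The genes described here are 10 transcription factors that control whether a CD8+ T cell takes on effector or memory features: Tbx21, Eomes, Tcf7, Lef1, Id2, Id3, Zeb2, Bach2, Foxo1 and Runx3. They were chosen by name, with earlier results of these data known, and make up 10 of the 54532 genes in the count table. The cells were CD8+ regulatory T cells (CD8+ Tregs) sorted from mouse spleen as CD8+CD44+Ly49+CD122+, and their RNA was sequenced in bulk in 11 libraries. All mice were WT, and the labels give no treatment. The young mice (labelled Young) were 2 to 3 months old, with 3 male and 3 female libraries. The middle-aged mice (labelled Old, and called middle-aged in the study) were 10 to 12 months old, with 2 male and 3 female libraries. The study's figure legend for these data instead gives 3 months for the young and 12 months for the middle-aged mice. The libraries of each age and sex were numbered from 1, and the study treats them as independent biological replicates. The comparison between the age groups asks how the transcriptional program of CD8+ Tregs differs with age.

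T-bet (encoded by Tbx21) and Eomes are related T-box factors that drive cytotoxic and cytokine genes in CD8+ T cells and NK cells, and Zeb2 is a repressor that acts with T-bet in terminal effector cells. Id2 and Id3 carry a helix-loop-helix domain but no DNA-binding domain, and they block the E proteins, which bind the E-box motif. In CD8+ T cells Id2 is known for supporting effector cells and Id3 for marking cells with memory potential. Tcf7 (encoding TCF-1) and Lef1 are HMG-box factors of naive, memory and stem-like cells, Bach2 represses effector genes, Foxo1 maintains quiescence and homing genes, and Runx3 sustains the CD8 lineage and its cytotoxic genes.

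Total counts ran from 6135736 (young male 1) to 24394532 (young female 2), and young female 1, at 8421396, was the other library under 10000000. A count of 0 allows a level of up to 0.119 to 0.543 CPM (counts scaled to library size with TMM factors), depending on the library, which covers counting error only. The libraries with replicate number 1 differed from the others at both ages and in both sexes. Relative to each gene's mean over the 11 libraries, their log2 CPM was lower the longer the gene. The slopes of this deviation on log10 gene length ran from -0.88 to -0.31. Those of numbers 2 and 3 lay between 0.05 and 0.61. The summed CD8 T cell identity markers, which include Cd8a, Cd3e, Il2rb (CD122) and 4 Klra (Ly49) genes, were at 7136 to 12385 CPM in young libraries and 7118 to 11392 CPM in middle-aged ones. Middle-aged female 2 stood apart in its summed myeloid markers, at 2732 CPM against at most 366 CPM in every other library. In bulk RNA, fewer cells of a type and less RNA per cell cannot be told apart.

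The Id pair differed most clearly with age. Id2 was 2.04-fold higher and Id3 2.83-fold lower in middle-aged than in young libraries, and these were the only members whose age groups did not overlap. Over the 13129 genes tested, 1.31% had groups that did not overlap, with 1.01% higher and 0.297% lower in all middle-aged libraries. In edgeR's quasi-likelihood test with sex as a term, 0 of the 10 members reached an adjusted p under 0.05, as did 0.0229% of all tested genes (3 genes). At an unadjusted p under 0.05, Id2 was higher and Id3 and Lef1 were lower, which is 3 of 10 members, where 2.99% of all tested genes passed (2.00% higher and 0.990% lower). DESeq2 and limma voom each called Id2 and Id3 at an adjusted p under 0.05 (2 of 10), where they called 0.853% and 1.05% of all tested genes. The log2 fold change was above 0 for 5 of the 10 members, as for 50.4% of all tested genes, and the median was 0.12 against 0.00278 over all tested genes.

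**Figure D1:**
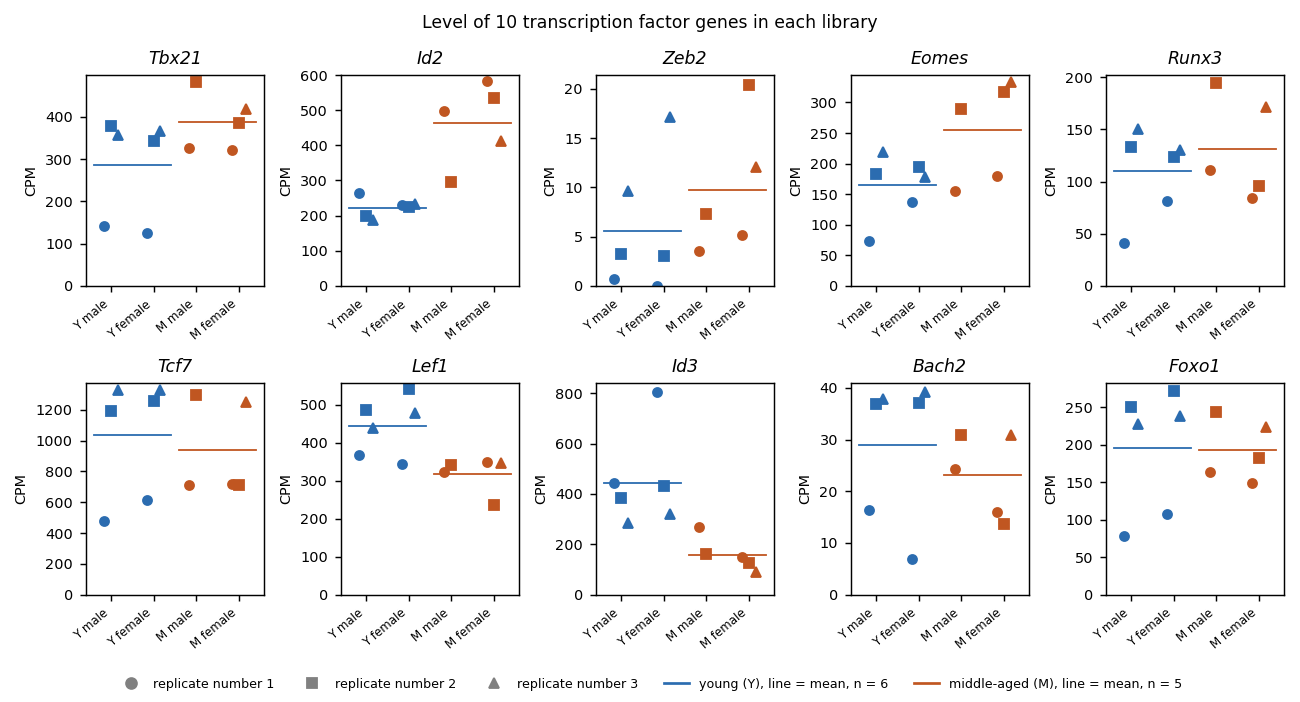
Level of each of the 10 genes in CPM (y axis, from 0) in every library, by age and sex, with the replicate number as symbol and the mean of each age group as a line (young n = 6, middle-aged n = 5). The middle-aged Id2 points, from 295 to 582 CPM, all lie above the young points, and the middle-aged Id3 points, from 88.8 to 267 CPM, all lie below them.

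Id2 (ENSMUSG00000020644, chromosome 12, 25093799 to 25097140, minus strand, GRCm38) was at 186 CPM in the lowest young library, 228 CPM at the young median and 264 CPM in the highest. Middle-aged males 1 and 2 were at 497 and 295 CPM, and middle-aged females 1, 2 and 3 at 582, 535 and 413 CPM. Every middle-aged library was thus above every young library, and middle-aged male 2 came nearest to them. Young libraries had a mean of 223 ± 27.6 CPM (SD, n = 6) and middle-aged libraries one of 464 ± 113 CPM (SD, n = 5). The log2 fold change was 1.03 with an SE of 0.21 (edgeR, adjusted p = 0.228). The exact 2-sided permutation test of mean log2 CPM gave p = 0.00216, the smallest that 6 against 5 libraries allow. Within replicate numbers 1, 2 and 3 the log2 difference was 1.12, 0.91 and 0.98. There was no middle-aged male 3, so here and below the value within number 3 sets a single middle-aged female library against the mean of a young male and a young female one. Because the age groups did not overlap, Id2 was bound to be higher in the middle-aged library of all 5 pairs of the same sex and number. With the replicate number as a block across the sexes, edgeR's adjusted p for Id2 was 0.0445 at a log2 fold change of 0.98.

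Id3 (ENSMUSG00000007872, chromosome 4, 136143497 to 136145755, plus strand, GRCm38) was at 286, 408 and 804 CPM in the lowest, median and highest young library. It was lower in middle-aged males 1 and 2, at 267 and 161 CPM, and in middle-aged females 1, 2 and 3, at 148, 127 and 88.8 CPM. The highest young value came from young female 1, and the gap between the age groups was narrow, between 267 and 286 CPM. Mean levels were 444 ± 187 CPM (SD, n = 6) for the young and 158 ± 66.6 CPM (SD, n = 5) for the middle-aged group. The corresponding log2 fold change was -1.50 with an SE of 0.35 (edgeR, adjusted p = 0.334), and the exact permutation p was 0.00216. Compared within numbers 1, 2 and 3, the log2 difference was -1.58, -1.51 and -1.77 (-1.84 between the females alone in number 3). Without overlap between the groups, Id3 had to be lower in the middle-aged library of all 5 pairs. With the replicate number as a block across the sexes, edgeR's adjusted p for Id3 was 0.0295 at a log2 fold change of -1.60.

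With the block set within each sex, which leaves fewer degrees of freedom, the adjusted p of both Id genes was 0.191 in edgeR, and 0 members and 0.0152% of all tested genes passed. At an unadjusted p under 0.05 it passed 5 members (6.37% of all tested genes), and the shared block passed 6 (8.87%), of which Id2 and Id3 also passed after adjustment (0.145% of all tested genes). The shared block added Tbx21, Eomes and Zeb2 to the 3 members named above.

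The promoter windows of Id2 and Id3 are shown because these genes differed in opposite directions and because the proteins that Id2 and Id3 bind recognise the E-box. Each window is the RefSeq sequence from 250 bases before to 50 bases after the gene's start on GRCm38.p6. The Id2 window is at chr12:25096043-25096342 (minus strand) and the Id3 window at chr4:136143572-136143871 (plus strand), and both overlap the gene interval given in the count table, which reaches further upstream. Capitals mark E-box matches (CANNTG, which reads the same on both strands).
Id2: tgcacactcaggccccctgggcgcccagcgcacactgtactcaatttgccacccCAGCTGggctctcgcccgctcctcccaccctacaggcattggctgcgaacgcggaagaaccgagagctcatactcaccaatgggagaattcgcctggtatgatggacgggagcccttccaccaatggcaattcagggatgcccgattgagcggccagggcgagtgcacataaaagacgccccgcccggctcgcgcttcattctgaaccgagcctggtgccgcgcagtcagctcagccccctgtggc
Id3: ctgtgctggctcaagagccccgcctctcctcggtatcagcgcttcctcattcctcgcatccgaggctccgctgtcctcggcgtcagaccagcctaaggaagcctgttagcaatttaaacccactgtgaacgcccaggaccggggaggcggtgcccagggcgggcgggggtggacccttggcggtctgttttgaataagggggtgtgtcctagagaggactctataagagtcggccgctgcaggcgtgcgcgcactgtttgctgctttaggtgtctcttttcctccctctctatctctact
The Id2 window held 1 E-box match and the Id3 window 0, and 72.3% of the 32851 RefSeq mouse promoter windows held at least 1. All 10 members had a window, some of them several. None of the members' windows held the TCF/LEF motif CTTTGAT or the T-box motif AGGTGTGA on either strand, which 3.73% and 1.28% of all windows held. A match is a description of the letters and does not show that a factor binds there.

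Since library scaling cancels in a ratio of genes within a library, 6 ratios were compared, each per kilobase of gene length. The level of Id2 was below that of Id3 in every young library (ratios of 0.211, 0.411 and 0.538 for the lowest, the median and the highest) and above it in every middle-aged library. The middle-aged ratios were 1.37 and 1.35 in males 1 and 2, and 2.88, 3.10 and 3.41 in females 1, 2 and 3. The middle-aged females were thus higher than the middle-aged males, and the order of the Id genes was inverted between the age groups. The mean log2 ratio differed by 2.52 (SE 0.35), a 5.75-fold difference, and the exact permutation p was 0.00216 (0.00433 after Benjamini-Hochberg adjustment over the 6 ratios). Here and for the ratios below, that adjustment does not cover the choice of members, which was made with earlier results known. Within replicate numbers 1, 2 and 3 the difference was 2.70, 2.42 and 2.75. Because Id3 itself was lower in every middle-aged library, 32.5% of the other tested genes also had a ratio to Id3 that was higher in all middle-aged libraries, so the ratio adds little to the levels of the genes themselves.

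**Figure D2:**
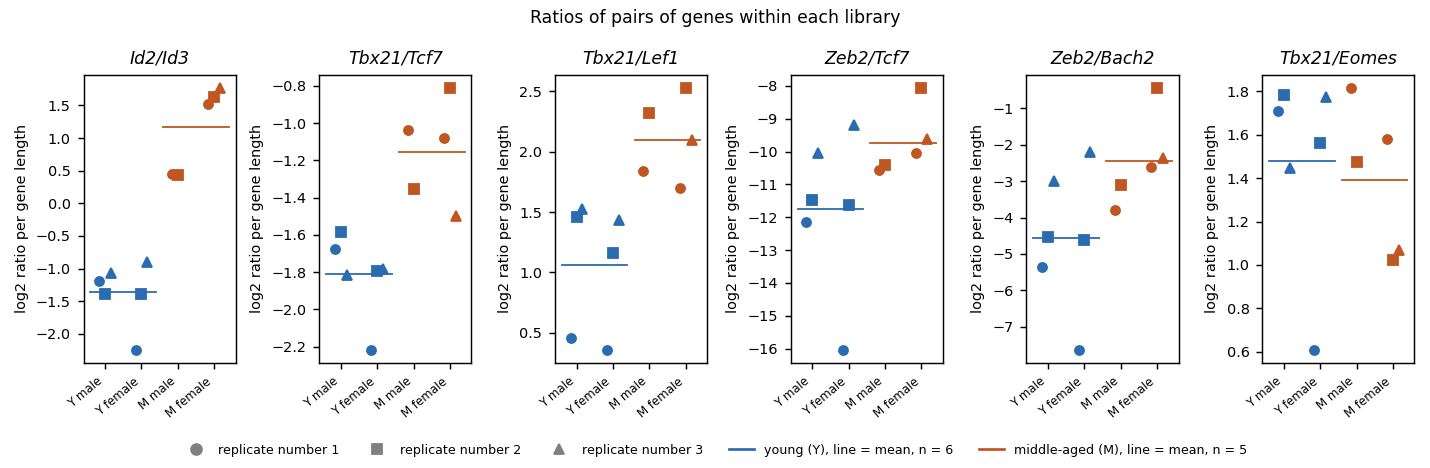
Log2 ratio of the levels per kilobase of gene length of 6 pairs of genes in every library (y axis, a separate scale for each pair), with the mean of each age group as a line (young n = 6, middle-aged n = 5). Id2/Id3, Tbx21/Tcf7 and Tbx21/Lef1 were higher in all 5 middle-aged than in all 6 young libraries, and the lowest Zeb2 ratios belong to young female 1, where Zeb2 had 0 counts and the 0.5 added to each count sets the value.

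Of the T-box genes, Tbx21 (chromosome 11, 97098071 to 97115331, minus strand, GRCm38) was at 125, 350 and 378 CPM in the lowest, median and highest young library. The middle-aged values were 327 and 482 CPM in males 1 and 2, and 322, 386 and 418 CPM in females 1, 2 and 3. The groups overlapped, and the 2 low young values, 143 and 125 CPM, came from the libraries with replicate number 1. Tbx21 had a log2 fold change of 0.45 with an SE of 0.32 (edgeR, adjusted p = 1.00), and the exact permutation p was 0.190. The log2 difference was 1.28, 0.26 and 0.21 within numbers 1, 2 and 3, so most of the mean difference lay in number 1. Tbx21 was still higher in the middle-aged library of all 5 pairs, and the fit blocked on replicate number gave 0.65 (edgeR, adjusted p = 0.326). In the 9 libraries with over 10000000 counts, which leave out both low young libraries, the log2 fold change was 0.10, and without young female 1 alone it was 0.27.

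Eomes (chromosome 9, 118478212 to 118486132, plus strand, GRCm38) was at 72.7, 181 and 219 CPM in the lowest, median and highest young library. Among middle-aged libraries it was at 155 and 289 CPM in males 1 and 2, and at 179, 317 and 333 CPM in females 1, 2 and 3. The 3 middle-aged libraries with numbers 2 and 3 lay above every young library, while those with number 1 lay among them. Its log2 fold change was 0.61 with an SE of 0.31 (edgeR, adjusted p = 1.00), and the exact permutation p was 0.0779. This difference was alike within numbers 1, 2 and 3, at 0.74, 0.68 and 0.75, and all 5 pairs had the higher value in the middle-aged library. Blocked on replicate number, the log2 fold change was 0.67 (edgeR, adjusted p = 0.162).

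The level of Tbx21 relative to Eomes per kilobase did not separate by age. It was 1.52, 3.11 and 3.44 in the lowest, median and highest young library, 3.52 and 2.78 in middle-aged males 1 and 2, and 2.99, 2.03 and 2.10 in middle-aged females 1, 2 and 3. The log2 ratio differed by -0.09 (SE 0.24, exact permutation p = 0.753), with 0.54, -0.42 and -0.54 within numbers 1, 2 and 3, so the direction was not the same in all numbers.

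Zeb2 (chromosome 2, 44983632 to 45117395, minus strand, GRCm38) had the lowest level per kilobase of the 10 genes. It was at 0, 3.11 and 17.1 CPM in the lowest, median and highest young library. Middle-aged males 1 and 2 had 3.52 and 7.26 CPM, and middle-aged females 1, 2 and 3 had 5.19, 20.4 and 12.1 CPM. Young female 1 had 0 counts, which allows up to 0.417 CPM, and young male 1 had 4 counts. For Zeb2 the log2 fold change was 0.61 with an SE of 0.95 (edgeR, adjusted p = 1.00), and the exact permutation p was 0.193. It depended on the replicate number, with log2 differences of 3.85, 1.94 and -0.09 within numbers 1, 2 and 3, and the fit blocked on that number gave 2.03 (edgeR, adjusted p = 0.526). The highest value came from middle-aged female 2, the library with the high myeloid markers, and leaving it out brought the log2 fold change to 0.30. Without young female 1, the library with 0 counts, it was 0.28, and without young female 3, the highest young library, it was 1.60. Zeb2 is also expressed in myeloid cells, and the part of the myeloid markers in this result was not tested.

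Bach2 (chromosome 4, 32238804 to 32586108, plus strand, GRCm38) was at 6.81, 36.9 and 39.3 CPM in the lowest, median and highest young library. It was at 24.2 and 31.0 CPM in middle-aged males 1 and 2, and at 16.0, 13.7 and 30.8 CPM in middle-aged females 1, 2 and 3. All middle-aged values lay inside the young range, whose lower end was set by young female 1 and young male 1 (16.5 CPM). Bach2 had a log2 fold change of -0.32 with an SE of 0.44 (edgeR, adjusted p = 1.00), and the exact permutation p was 0.766. The direction differed between numbers 1, 2 and 3, with log2 differences of 0.89, -0.84 and -0.32. In the 9 libraries with over 10000000 counts, which leave out those 2 young libraries, the log2 fold change was -0.71, with an unadjusted p under 0.05 and an adjusted p of 0.747 in edgeR. The log2 ratio of Zeb2 to Bach2 was 2.09 higher in middle-aged libraries (SE 0.96, exact permutation p = 0.0584, adjusted p = 0.0877 over the 6 ratios). It was 3.29, 2.81 and 0.23 higher within numbers 1, 2 and 3, and the groups overlapped, where 1.29% of the other tested genes had a ratio to Bach2 that was higher in all middle-aged libraries.

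Tcf7 (chromosome 11, 52252371 to 52283014, minus strand, GRCm38) was at 481, 1226 and 1330 CPM in the lowest, median and highest young library. Middle-aged males 1 and 2 were at 709 and 1299 CPM, and middle-aged females 1, 2 and 3 at 717, 715 and 1248 CPM. It fell into a lower set of 5 libraries, made up of the 4 with replicate number 1 and middle-aged female 2, and a higher set of 6, and both ages were in each. With age the log2 fold change was -0.14 with an SE of 0.33 (edgeR, adjusted p = 1.00), and the exact permutation p was 0.814. Within the replicate numbers it was 0.39, -0.35 and -0.09, and the blocked fold change was 0.02.

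Lef1 (chromosome 3, 131110471 to 131224356, plus strand, GRCm38), the relative of Tcf7, was at 345, 459 and 542 CPM in the lowest, median and highest young library. The middle-aged libraries had 323 and 340 CPM in males 1 and 2, and 350, 236 and 346 CPM in females 1, 2 and 3. The groups overlapped only through young female 1, at 345 CPM, which lay below middle-aged females 1 and 3. Young and middle-aged means were 443 ± 75.0 CPM (SD, n = 6) and 319 ± 47.5 CPM (SD, n = 5). Lef1 had a log2 fold change of -0.47 with an SE of 0.20 (edgeR, adjusted p = 1.00), and the exact permutation p was 0.0173. The log2 difference of Lef1 was -0.08, -0.86 and -0.41 within numbers 1, 2 and 3, so number 1 hardly differed by age. Without middle-aged female 2 the log2 fold change was -0.38. In edgeR the unadjusted p stayed under 0.05 in 4 of the 11 fits that each left out a library.

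Measured against these genes, Tbx21 separated by age although it did not by itself. Its ratio to Tcf7 per kilobase was 0.215, 0.289 and 0.334 in the lowest, median and highest young library. It was 0.487 and 0.392 in middle-aged males 1 and 2, and 0.474, 0.570 and 0.354 in middle-aged females 1, 2 and 3. All 5 middle-aged libraries were above all 6 young ones, with middle-aged female 3 closest to them. The log2 ratio differed by 0.66 (SE 0.15, exact permutation p = 0.00216, adjusted p = 0.00433 over the 6 ratios), and by 0.89, 0.61 and 0.30 within numbers 1, 2 and 3. Of the other tested genes, 1.32% had a ratio to Tcf7 that was higher in all middle-aged libraries.

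The ratio of Tbx21 to Lef1 per kilobase was 1.28, 2.47 and 2.87 in the lowest, median and highest young library. It was 3.58 and 5.0 in middle-aged males 1 and 2, and 3.25, 5.78 and 4.27 in middle-aged females 1, 2 and 3, again with no overlap. The log2 ratio differed by 1.03 (SE 0.26, exact permutation p = 0.00216, adjusted p = 0.00433 over the 6 ratios), with 1.36, 1.12 and 0.62 within numbers 1, 2 and 3. Against Lef1, 5.01% of the other tested genes were higher in all middle-aged libraries. The log2 ratio of Zeb2 to Tcf7 was 2.01 higher in middle-aged libraries (SE 1.07, exact permutation p = 0.0887, adjusted p = 0.106), but this came from numbers 1 and 2 (3.79 and 2.31) and not from number 3 (0.00).

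Foxo1 (chromosome 3, 52268336 to 52353221, plus strand, GRCm38) and Runx3 (chromosome 4, 135120652 to 135177990, plus strand, GRCm38) had age groups that overlapped over most of their range. Foxo1 was at 77.9, 233 and 272 CPM in the lowest, median and highest young library, at 164 and 243 CPM in middle-aged males 1 and 2, and at 149, 183 and 224 CPM in middle-aged females 1, 2 and 3. Its log2 fold change was -0.03 with an SE of 0.33 (edgeR, adjusted p = 1.00), with 0.77, -0.31 and -0.06 within numbers 1, 2 and 3. Runx3 was at 41.2, 126 and 150 CPM in the lowest, median and highest young library, at 111 and 195 CPM in middle-aged males 1 and 2, and at 84.0, 95.8 and 172 CPM in middle-aged females 1, 2 and 3. For Runx3 the log2 fold change was 0.26 with an SE of 0.35 (edgeR, adjusted p = 1.00), with 0.73, 0.09 and 0.30 within the numbers. The lowest value of both genes was that of young male 1. The exact permutation p was 0.788 for Foxo1 and 0.483 for Runx3.

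**Figure D3:**
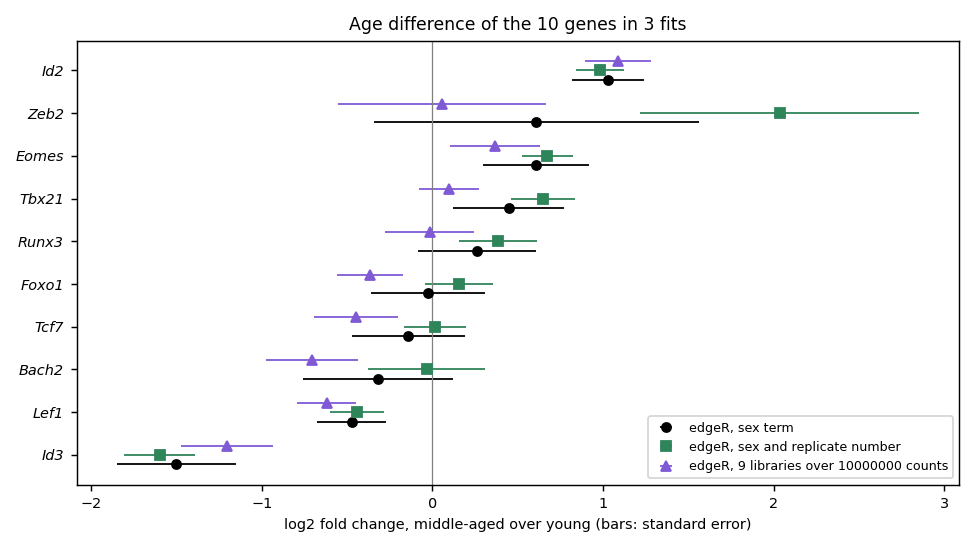
Log2 fold change of middle-aged over young libraries (x axis) for the 10 genes in 3 edgeR fits, with SE bars: all 11 libraries with a sex term, the same with the replicate number as a block, and the 9 libraries with over 10000000 counts. Id2 (1.03 with the sex term) and Id3 (-1.50) lie away from 0 in each fit, while Zeb2 runs from near 0 in the 9 libraries to 2.03 with the block.

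Replicate number and the age difference had to be read side by side for 8 of the genes. In the young libraries, the mean log2 CPM in number 1 minus that in numbers 2 and 3 was -4.41 for Zeb2, -1.82 for Bach2, -1.43 for Tbx21, -1.43 for Foxo1, -1.23 for Tcf7, -1.20 for Runx3, -0.95 for Eomes and -0.45 for Lef1. In the middle-aged libraries the same difference ran from -1.48 for Zeb2 to -0.26 for Bach2 in 7 of these, Eomes among them at -0.91, and was 0.15 for Lef1. Id2 and Id3, which have the shortest gene models of the 10 (2438 and 1791 bases), were instead higher in number 1, by 0.23 and 0.77 in young and by 0.42 and 0.71 in middle-aged libraries. Tbx21 (2488 bases) and Tcf7 (2625 bases) were nearly as short as Id2, yet were among the 8 genes lower in number 1 in young libraries. The libraries with number 1 thus stood further from the others in young than in middle-aged mice for these 8 genes, though for Eomes by little, and the 2 young ones were the shallowest libraries. Blocked on the replicate number shared by the sexes, the log2 fold change was 0.15 for Foxo1, 0.39 for Runx3, -0.03 for Bach2 and -0.44 for Lef1, beside the values given above for the other 4. With each library's gene length slope as a term, it was 1.45 for Zeb2, 0.54 for Eomes, 0.49 for Tbx21, 0.23 for Runx3, -0.01 for Foxo1, -0.16 for Tcf7, -0.24 for Bach2 and -0.48 for Lef1. In the 9 libraries with over 10000000 counts, it was 0.05 for Zeb2, 0.37 for Eomes, -0.02 for Runx3, -0.37 for Foxo1, -0.45 for Tcf7 and -0.62 for Lef1. Of these 8 genes, Lef1 and Eomes had a direction that was the same within all 3 numbers and in each of these fits, and so did Tbx21.

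**Figure D4:**
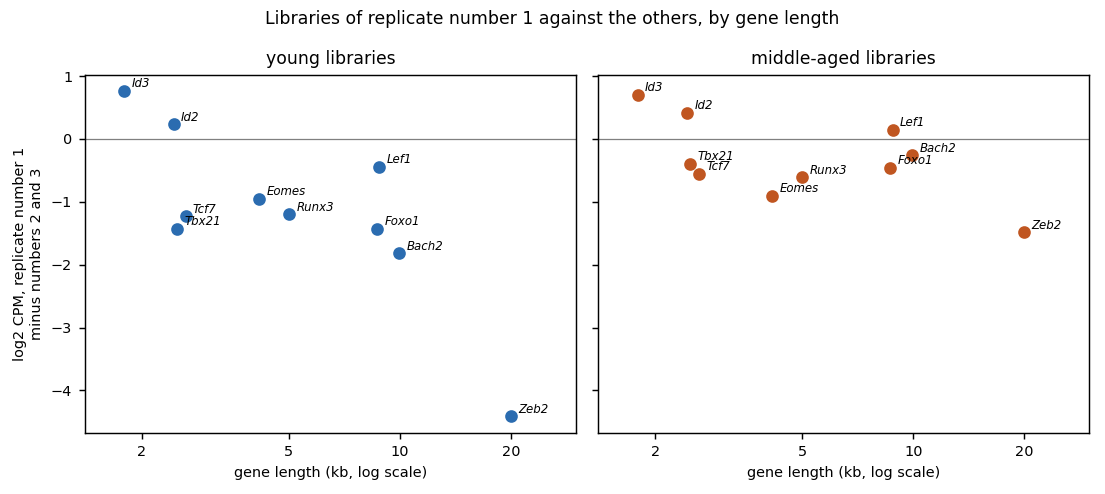
Mean log2 CPM in the libraries with replicate number 1 minus that in numbers 2 and 3 (y axis) against gene length in kb (x axis, log scale) for the 10 genes, in young (left) and middle-aged (right) libraries. Id3 and Id2 lie above 0 at both ages, and Zeb2, the longest gene, lies lowest, at -4.41 in young and -1.48 in middle-aged libraries.

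Per kilobase, Tcf7 had the highest mean level over the 11 libraries, at 377 ± 128 CPM per kb (SD). Id3 (176 ± 114), Id2 (136 ± 60.0) and Tbx21 (133 ± 43.2 CPM per kb) followed and did not differ from each other beyond their spread. Eomes (49.4 ± 19.1) and Lef1 (44.0 ± 10.1) formed the next pair, and Runx3 (23.9 ± 8.73) and Foxo1 (22.4 ± 7.27 CPM per kb) the one after. Bach2 (2.65 ± 1.15) and Zeb2 (0.374 ± 0.335 CPM per kb) were the lowest. Within the age groups, the means of Id3 were 248 CPM per kb in young and 88.4 CPM per kb in middle-aged libraries, and those of Id2 were 91.5 and 190 CPM per kb. By these group means Id3 ranked above Tbx21 (115 CPM per kb) and Id2 in the young group. It ranked below both in the middle-aged group, where the mean of Tbx21 was 156 CPM per kb. In middle-aged male 1, however, Id3 was above Tbx21 (149 and 131 CPM per kb).

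As a description without a test, the mean log2 CPM of Tbx21, Id2 and Zeb2 minus that of Tcf7, Lef1, Id3, Bach2 and Foxo1 was -2.22 ± 0.75 (SD, n = 6) in young and -0.66 ± 0.56 (SD, n = 5) in middle-aged libraries. The young values ran from -3.50 to -1.33 and the middle-aged ones from -1.18 to 0.21, and the genes were grouped with their age differences known. Computed from summed counts per kilobase, which gives the low counts of Zeb2 little weight, the difference between the groups was 1.28 in place of 1.56.

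No member differed by sex at an unadjusted p under 0.05 in edgeR, where 0.754% of all tested genes did. Id3 was the only member with an unadjusted p under 0.05 for the age-by-sex interaction (1.20% of all tested genes). Its mean log2 CPM differed between middle-aged and young libraries by -0.81 in males and by -2.02 in females, and the interaction was -1.30 (edgeR, adjusted p = 1.00). Young female 1 had the highest Id3 value, and its part in the interaction was not tested. For Id2 the difference was 0.84 in males and 1.14 in females (interaction 0.28, edgeR, adjusted p = 1.00).

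The members varied together across libraries both within and between effector and memory roles. Age means were not removed, so the correlations of genes that differed with age also carry that difference. Over the 11 libraries, which share the depth and gene length differences described, log2 CPM of Foxo1 correlated with that of Tcf7 (Pearson's r = 0.93), Runx3 (0.90) and Tbx21 (0.88), and Tbx21 with Zeb2 (0.88), Eomes (0.81) and Tcf7 (0.76). Id3 ran against Zeb2 (r = -0.77), Eomes (-0.72), Tbx21 (-0.70) and Id2 (-0.69), and Id2 against Lef1 (-0.75). Among the 5289 other tested genes with a mean log2 CPM over 5, the ones most like Id2 across libraries were Klrc1 (r = 0.90), Fasl (0.88) and As3mt (0.88). Those most like Id3 were Dapl1 (0.96), Arl5c (0.96) and Tec (0.92), and those most like Lef1 were Klf3 (0.91), Neurl3 (0.82) and Gm45552 (0.79). The nearest genes were Snx9 (0.98), Gne (0.98) and Ptdss1 (0.97) for Tbx21, Odc1 (0.97), Jak3 (0.95) and Fyn (0.94) for Eomes, and Vsir (0.96), Adgre5 (0.96) and Mbp (0.96) for Tcf7. They were Brat1, Sqstm1 and Il21r (each 0.98) for Foxo1, and Elovl5 (0.98), Naa30 (0.98) and Celf1 (0.96) for Runx3. Among 5290 genes they were Cyth4 (0.97), Arap2 (0.97) and H2-Q6 (0.96) for Zeb2, and Ppan (0.95), Rspry1 (0.94) and Hvcn1 (0.93) for Bach2.

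The partners and targets of these factors were read from 6 lists. In none of them did a gene reach an adjusted p under 0.05 in edgeR with the sex term and all 11 libraries. With the replicate number as a block across the sexes, 1 of their genes did (Cxcr6, an effector gene, adjusted p = 0.0453). At that threshold DESeq2 called 6 of their genes (5 effector genes and Myb) and limma voom 9 (6 effector genes, Myb, Dapl1 and Slamf6), against 0.145%, 0.853% and 1.05% of all tested genes for the block, DESeq2 and voom. Of the E proteins and other Id proteins, which the Id pair binds or resembles, 4 of 5 genes were tested, 2 had a log2 fold change above 0 and 2 below it (median -0.04), and 0 had an unadjusted p under 0.05. Of 10 partners of the Runx and TCF factors, 4 were positive and 6 negative (median -0.10), and Runx2 alone had an unadjusted p under 0.05 and was higher, as 2.00% of all tested genes were. Runx2, a relative of Runx3, had a mean of 17.0 ± 2.95 CPM in young libraries (SD, n = 6) and of 26.9 ± 4.77 CPM in middle-aged ones (SD, n = 5), and its groups did not overlap (log2 fold change 0.64, edgeR, adjusted p = 1.00). Of 12 other regulators of effector cells, 7 were positive and 5 negative (median 0.27), with 0 at an unadjusted p under 0.05. In 1 of them the groups did not overlap, with all middle-aged libraries higher. Over all tested genes, for all these lists, 1.01% were higher and 0.297% lower without overlap.

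Of 12 other regulators of memory and quiescence, 8 were positive and 4 negative (median 0.04), and 1 was lower at an unadjusted p under 0.05, as 0.990% of all tested genes were. This was Myb, a factor of stem-like T cells, which ran from 31.4 to 46.7 CPM in young libraries and from 4.50 to 24.1 CPM in middle-aged ones. The groups of Myb did not overlap, and its log2 fold change was -1.79 with an SE of 0.40 (edgeR, adjusted p = 0.321), with -2.33, -1.35 and -2.12 within numbers 1, 2 and 3. Leaving out middle-aged female 2, which had the highest middle-aged value, gave -2.22.

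Of 16 effector genes known as targets of the program that T-bet, Eomes and Zeb2 serve, 12 had a log2 fold change above 0 and 4 below it (median 0.18). At an unadjusted p under 0.05, 5 were higher (2.00% of all tested genes) and 1 was lower (0.990%) in middle-aged libraries. S1pr5, a sphingosine-1-phosphate receptor of NK and effector T cells, averaged 35.1 ± 17.7 CPM in the young (SD, n = 6) and 132 ± 35.3 CPM in the middle-aged group (SD, n = 5), without overlap (log2 fold change 1.86, edgeR, adjusted p = 0.321). Its log2 difference was 3.04, 1.98 and 1.54 within numbers 1, 2 and 3. Fasl, the ligand of the death receptor Fas, was at 42.7 ± 29.1 and 124 ± 42.1 CPM (log2 fold change 1.64, edgeR, adjusted p = 0.457), with 1.63, 1.68 and 1.51 within the numbers. Gzma, encoding granzyme A, went the other way, with 327 ± 95.7 CPM in the young and 94.9 ± 134 CPM in the middle-aged group (log2 fold change -2.20, edgeR, adjusted p = 0.558). Its large middle-aged SD came from middle-aged female 2. Without that library the log2 fold change was -3.22, with an unadjusted p of 1.5e-07 in edgeR, so the adjusted p of 0.558 depended on it. The other genes with a higher level at an unadjusted p under 0.05, named after their values were seen, were Gzmk (log2 fold change 2.95), Ccl5 (1.21) and Cxcr6 (0.82). S1pr5 and Gzmk were the 2 of the 16 genes whose groups did not overlap (1.01% of all tested genes, higher).

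Of 16 genes of the stem-like and naive program, which TCF-1, LEF-1 and Foxo1 serve, 6 had a log2 fold change above 0 and 10 below it (median -0.16), with 1 higher (2.00% of all tested genes) and 3 lower (0.990%) at an unadjusted p under 0.05. Dapl1, a marker of naive and stem-like CD8+ T cells and the gene most like Id3 across libraries, averaged 124 ± 49.3 CPM in the young (SD, n = 6) and 57.2 ± 17.2 CPM in the middle-aged group (SD, n = 5). Its groups did not overlap (log2 fold change -1.11, edgeR, adjusted p = 0.53). Slamf6, a surface receptor of stem-like cells, was at 150 ± 15.8 and 91.9 ± 34.1 CPM (log2 fold change -0.76, edgeR, adjusted p = 0.843), with overlap. The remaining lower gene, named after its values were seen, was Actn1 (log2 fold change -1.06). Bcl2, which protects cells from apoptosis, was the higher one, at 264 ± 34.5 and 367 ± 50.7 CPM without overlap (log2 fold change 0.48, edgeR, adjusted p = 1.00).

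**Figure D5:**
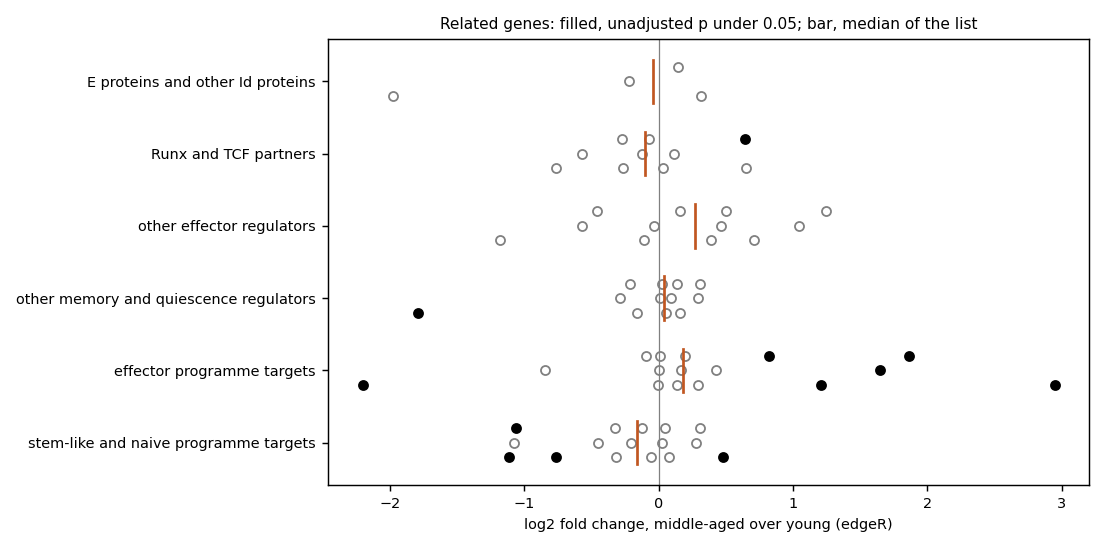
Log2 fold change of middle-aged over young libraries (edgeR, x axis) for the tested genes of 6 lists related to the 10 factors, filled where the unadjusted p was under 0.05, with the median of each list as a bar. Of the effector program targets 5 filled points lie to the right and 1 to the left, and of the stem-like and naive program targets 1 lies to the right and 3 to the left.

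Since T-bet, Eomes, Id2 and Runx3 are also factors of NK cells, and Id3, Bach2 and Foxo1 are expressed in B cells, the markers of other cells were summed beside these results. The 9 NK markers summed to 1049 to 1413 CPM (median 1199) in young and 590 to 1380 CPM (median 945) in middle-aged libraries. Several of them belong to receptor families that Ly49+ T cells express, and Gzma is also among the effector genes above. Of the 9, Klre1 (log2 fold change 0.65) and Cd160 (0.15) lay above 0 and 7 below it, with a median of -0.78. Ncr1, Klrb1c and Gzma were lower at an unadjusted p under 0.05 in edgeR (-2.33, -0.78 and -2.20), as 0.990% of all tested genes were. These markers were named after their values were seen. The 9 B cell markers summed to 136 to 450 CPM in young libraries and 177 to 637 CPM in middle-aged ones, and 5 tested plasma cell markers to 87.5 to 127 and 109 to 357 CPM. The 7 tested dendritic cell markers summed to 137 to 426 CPM in young libraries and 248 to 992 CPM in middle-aged ones, and the 12 tested myeloid markers to 56.9 to 320 and 162 to 2732 CPM. For each of these 4 lists the highest library was middle-aged female 2. The 4 CD4 T cell markers summed to 1.39 to 30.9 and 10.4 to 28.5 CPM, and the 6 tested erythroid and platelet markers to 27.8 to 155 and 1.05 to 31.5 CPM. At an unadjusted p under 0.05 in edgeR, 4 erythroid and platelet markers were lower (0.990% of all tested genes) and 3 myeloid markers higher (2.00%). The 7 tested dendritic cell markers all had a log2 fold change above 0, with 0 at that threshold, as in the B cell, plasma cell and CD4 T cell lists. No marker was at 0 in all libraries. Without middle-aged female 2, the log2 fold change of Id2 was 0.99 and that of Id3 was -1.43. The part of the other cell types in the members' values was not tested.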

How the data were processed

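RNA of sorted splenic CD8+ Tregs was sequenced in 11 libraries, made with a SMARTer kit for low amounts of RNA. The authors deposited whole-number counts of reads per Ensembl gene, without normalization, with gene coordinates of GRCm38 and gene lengths. The submitters' processing notes name kallisto and mm10, without version or role. The annotation release, filters and strandedness are not given in the sources used here, so reads of overlapping or antisense genes may be shared. All 11 columns matched a label and 0 were unused. Groups came from the age and sex labels. Whether each library came from a single mouse is not stated, so p-values measure the spread between these samples.

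Counts were tested with edgeR 4.0.16 in R 4.3.3 (TMM, filterByExpr on age with a minimum count of 10 and a minimum total of 15, robust glmQLFit, glmQLFTest, sex and age as terms), and p-values were adjusted by Benjamini-Hochberg over the 13129 tested genes, which included all 10 members. Fold changes are middle-aged over young. Levels are CPM with TMM factors, and log2 CPM used a prior count of 2. Ratios were taken within a library after adding 0.5 to each count, and compared by exact 2-sided permutation tests (SciPy 1.17.1). The study names no test for these data. The members and lists were chosen with earlier results of these data known. The genes named are all members, for each related list the 2 genes of smallest p on either side of 0 (or fewer) at an unadjusted p under 0.05 and any gene at an adjusted p under 0.05, and the 3 genes most correlated with each member.

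Same-numbered libraries of a sex deviated in the same direction, though not they alone. The correlation of their deviations from group means over 8362 genes was 0.55 and 0.35 for male pairs 1 and 2, and 0.61, 0.15 and 0.68 for female pairs 1, 2 and 3. It was also 0.63 for young male 3 with middle-aged male 2. Young female 3 with middle-aged female 2 had 0.23, and young female 2 with middle-aged female 3 had 0.16. The other pairs of unlike number were negative. There were 2 middle-aged males, so the correlations of a young male with them are equal and opposite. These correlations were taken within each sex and do not bear on a block shared by the sexes. The labels do not say what a number stands for. Both kinds of block were fitted as alternatives, and blocked values are given where they change a call.

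Alternatives were other scaling factors and filters, DESeq2 1.42.0, limma 3.58.1 voom with sample quality weights, estimation without the robust option, no sex term, replicate blocks, each library's gene length slope, each sex alone, the 9 deeper libraries and each library left out. The slope with the block within sex, and the Id2/Id3 ratio within each number, were added after seeing the data. The steps were tested on simulated data. Promoter sequences are from RefSeq.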

Additional observations from a re-analysis of the deposited data

Results flagged for a closer look

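Values that stand apart from their group were looked for in 34 groups, each made up of the 6 young or the 5 middle-aged libraries. This gave 4 such values, where chance gives about 1 in 20. For Lef1, middle-aged female 2 had a log2 CPM of 7.88, below the other 4 middle-aged libraries at 8.33 to 8.45. The other 3 all belong to young female 1, a library with replicate number 1 and the second lowest depth, and are log2 ratios of counts not divided by gene length. Its ratio of Tbx21 to Tcf7 was -2.29, below the other 5 young libraries at -1.89 to -1.66. Its ratio of Id2 to Id3 was -1.80, below the others at -0.95 to -0.45. Its ratio of Tbx21 to Eomes was -0.13, below the others at 0.71 to 1.04. Without young female 1, the age difference was 0.58 for Tbx21 to Tcf7 and 2.35 for Id2 to Id3, beside 0.66 and 2.52 with all libraries. The direction of these ratios could not turn, since their age groups did not overlap. For Tbx21 to Eomes it was -0.26 beside -0.09.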

How the results depend on the processing

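The count of genes with an adjusted p under 0.05 for age (3) was 17 with at least 1 count in any library, 5 with at least 10 counts in every library, 5 without the sex term, 112 with DESeq2, 138 with limma voom, 45 with the gene length slope and 6 in the 9 deeper libraries, and 0 in males or females alone. With the replicate block it was 19 for a number shared by the sexes and 2 within sex, and 0 when either block was joined with the slope. It was 1 to 4 with a library left out. The 0 members called became 1 with at least 1 count in any library and 2 with DESeq2, limma voom, the shared replicate block or the slope, and stayed 0 with each library left out. The 3 members at an unadjusted p under 0.05 became 5 with the block within sex, 6 with the shared block, 6 with the slope and 0 in males alone, and 2 to 4 with a library left out. Id2 and Id3 kept their directions in every alternative (0.72 to 1.16 and -2.08 to -0.79), and their unadjusted p stayed under 0.05 with each library left out.

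The difference of the log2 ratio Id2/Id3 was 1.66 in males and 3.15 in females alone, where p cannot go below 0.1. With a library left out it was 2.35 to 2.71 for Id2/Id3, 0.57 to 0.74 for Tbx21/Tcf7, 0.89 to 1.13 for Tbx21/Lef1, 1.16 to 2.52 for Zeb2/Tcf7, 1.48 to 2.56 for Zeb2/Bach2 and -0.26 to 0.0062 for Tbx21/Eomes. The exact p of both Zeb2 ratios was 0.0238 without young female replicate 3. As pairs of the same sex and number, the replicate block gave 2.58 for Id2/Id3, 0.66 for Tbx21/Tcf7 and 1.12 for Tbx21/Lef1, each with an exact p of 0.0625, the smallest that 5 pairs allow. The age groups of these ratios did not overlap, so any pairing of the libraries would give that p. Of the named genes, Id2, Id3 and Cxcr6 (adjusted p 0.0453) passed with the shared block.

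Directions near 0 turned. Tcf7 was 0.0011 with the block within sex, 0.016 with the shared block, 0.026 with slope and block within sex and 0.0059 in males. Foxo1 was 0.16, 0.15, 0.078 (slope and shared block), 0.11 (slope and block within sex) and 0.13 (males), and -0.18 to 0.12 with a library left out. Zeb2 was -0.22 with slope and block within sex, and Runx3 -0.015 in the deeper libraries. The cause was not tested. Zeb2 did not pass the filter on 10 counts in every library, and no ratio of Zeb2 could be taken with 0 added. The 6 and 5 libraries, and few counts for Zeb2 in 2 of them, limit what these data show.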
